A study of Mus musculus with 6 samples.

Results

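The genes described here are the subunits, activators, inhibitor and assembly chaperones of the mouse proteasome, taken as every protein-coding gene with a Psma, Psmb, Psmc, Psmd, Psme, Psmf1 or Psmg symbol followed by its number. They were 48 of the 54532 genes with a value in each library. The proteasome is the protease that degrades proteins tagged with ubiquitin. Its 20S core is a barrel of alpha and beta rings, with the protease sites in the beta rings, and it is capped by the 19S regulator, whose ATPases unfold the substrate, or by the PA28 and PA200 activators. Germ cells of the testis carry a variant known as the spermatoproteasome, in which PSMA8 takes the place of PSMA7 in the alpha ring and PA200, encoded by Psme4, caps the core. In cells exposed to interferon the catalytic beta subunits PSMB5, PSMB6 and PSMB7 are replaced by PSMB8, PSMB9 and PSMB10, which gives the immunoproteasome.

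RNA was sequenced from pachytene cells, spermatocytes in the long stage of meiosis when homologous chromosomes are fully paired. The cells were separated from mouse testis by STA-PUT, a sedimentation of cells by size through a gradient, at about postnatal day 80. The groups were MAPS EE;MAPS KO (EE_KO, given in the labels as MAPS overexpression in the KO background), MAPS KO (KO), which shares the MAPS deletion with EE_KO, and wild type (WT). There were 2 libraries per group from 2 experiments, with 3 mice of 1 genotype used per group. The sources used here do not give the promoter behind the EE allele, the part of the gene deleted in KO, the strain, or whether a library pools mice. The design asked about the silencing of the sex chromosomes after the loss of MAPS. Levels are FPKM (fragments per kilobase of exon, scaled to library size), which are per length. The length is that of all annotated exons of a gene, which can exceed that of the transcript present. Levels of different genes within a library can therefore be compared only roughly.

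The gene that encodes MAPS, 1700102P08Rik, stood at 108.6 and 82.2 FPKM in the EE_KO libraries, at 7.97 and 10.1 FPKM in the KO libraries and at 157.0 and 150.2 FPKM in the WT libraries. Reads on genes came to between 14178387 and 16565238 per library. The KO libraries stood apart from the other 4, and their marker levels went only in part with the label of pachytene cells. The 11 markers of pachytene spermatocytes summed to 4332 and 4685 FPKM in EE_KO, 228.7 and 275.5 FPKM in KO and 4901 and 4431 FPKM in WT. Of these markers 10 fell in KO against WT by limma, which called 48.2% of all genes tested as lower. Sycp3 had the smallest fall of the 10 (log2 change -0.60), with 42.4 and 54.9 FPKM in KO and 74.0 and 72.8 FPKM in WT. Sycp1 (log2 change -0.19) was not called, with 38.0 and 41.9 FPKM in KO and 43.2 and 47.9 FPKM in WT. Ldhc, the highest of the 11 in WT, weighs most in the WT sums. It stood at 52.9 and 68.5 FPKM in KO and 2816 and 2500 FPKM in WT. All 10 Sertoli cell markers were higher in both KO libraries than in both WT libraries, as were 41.6% of all genes tested. Their sums were 415.2 and 222.5 FPKM in EE_KO, 3659 and 3403 FPKM in KO and 251.2 and 248.5 FPKM in WT. All 8 Leydig cell markers were likewise higher in both KO libraries than in both WT libraries (sums of 179.0 and 84.3, 2231 and 2138, 60.4 and 109.9 FPKM in the same order). Summed markers of spermatids, the stage after meiosis, were 1576 and 2309 FPKM in EE_KO, 14.4 and 14.6 FPKM in KO and 1247 and 2750 FPKM in WT, and those of spermatogonia, the stage before it, were 22.1 and 17.6, 182.4 and 220.7, and 18.9 and 20.9 FPKM. Of the 7 spermatogonial markers 6 were higher in both KO libraries than in both WT libraries, as were 41.6% of all genes tested. The other, Gfra1, was lower, at 0.518 and 0.347 FPKM in KO and 0.926 and 1.23 FPKM in WT. Every result below that sets KO beside another group moves with these marker levels, and their part in it was not tested.

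Sequence upstream of the start is shown for 3 members, 1 from each set of alternative subunits described below, whose transcript levels differed between KO and the other groups. The bases lie upstream of the RefSeq start, read 5′ to 3′ on the gene's strand, from RefSeq on GRCm38.p6. Capitals mark the matches described further on: AACTG or its reverse complement CAGTT, the core bound by MYB factors, and CCAAT, the CCAAT box.
Psme4: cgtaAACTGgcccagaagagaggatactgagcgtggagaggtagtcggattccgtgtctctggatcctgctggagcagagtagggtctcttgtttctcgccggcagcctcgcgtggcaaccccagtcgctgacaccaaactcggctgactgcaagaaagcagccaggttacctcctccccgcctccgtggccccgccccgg
Psma7: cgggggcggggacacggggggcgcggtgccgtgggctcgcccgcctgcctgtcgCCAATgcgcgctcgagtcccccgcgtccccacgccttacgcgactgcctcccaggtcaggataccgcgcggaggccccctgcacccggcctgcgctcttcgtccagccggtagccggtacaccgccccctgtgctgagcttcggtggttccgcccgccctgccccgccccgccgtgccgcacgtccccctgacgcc
Psmb10: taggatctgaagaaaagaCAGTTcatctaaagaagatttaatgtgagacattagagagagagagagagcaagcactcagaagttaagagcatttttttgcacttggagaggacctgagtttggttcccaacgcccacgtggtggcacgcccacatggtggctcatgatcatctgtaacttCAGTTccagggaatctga
They come from chr11:30771525-30771725 on the plus strand for Psme4, chr2:180042465-180042714 on the minus strand for Psma7 and chr8:105938445-105938642 on the minus strand for Psmb10.

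Transcripts of Psma8 and Psma7, which encode alternative alpha subunits, differed between the groups in opposite directions. These are RNA levels, and the subunits in the assembled core were not measured. Psma8, the germ cell form, a gene of chromosome 18, stood at 106.9 and 116.2 FPKM in EE_KO, at 10.5 and 13.8 FPKM in KO and at 124.3 and 116.9 FPKM in WT. Psma7, the form of other cells, stood at 5.52 and 4.11 FPKM in EE_KO, at 43.0 and 42.3 FPKM in KO and at 3.61 and 4.86 FPKM in WT. Both KO libraries were below all others for Psma8 and above all others for Psma7, while the EE_KO and WT libraries overlapped for Psma7 but not for Psma8, where EE_KO lay lower by a small margin. On the log2(FPKM + 1) scale, Psma8 fell by 3.22 in KO against WT (SE 0.14, limma adjusted p = 3.61e-07) and was 3.11 higher in EE_KO against KO (SE 0.14, adjusted p = 4.60e-07). Psma7 rose by 3.07 in KO against WT (SE 0.17, adjusted p = 1.23e-06) and was 2.92 lower in EE_KO against KO, a log2 change of -2.92 (SE 0.17, adjusted p = 1.73e-06). Among the 48 members ordered by mean FPKM, Psma8 ranked 4 in EE_KO, 37 in KO and 4 in WT, and Psma7 ranked 39, 10 and 39 in the same groups. Both KO libraries thus held fewer Psma8 than Psma7 transcripts per length, and all other libraries held more.

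Within a library, the share of Psma8 in the sum of both was 95.1% and 96.6% in EE_KO, 19.6% and 24.6% in KO and 97.2% and 96.0% in WT. The mean log2 ratio of Psma8 over Psma7 was 4.55 ± 0.38 in EE_KO, -1.83 ± 0.30 in KO and 4.85 ± 0.37 in WT (SD, n = 2 libraries each). The difference was -6.68 in KO against WT, a ratio 0.00978 times that of WT, 6.38 in EE_KO against KO and -0.30 in EE_KO against WT. Ratios within a library do not depend on how the library was scaled. The difference of KO from each other group was many times the SD between libraries, and that between EE_KO and WT was smaller than the SD. The exact two-sided permutation p was 0.333, 0.333 and 0.667 for these comparisons, and 0.333 is the smallest that 2 libraries against 2 allow. The sum of Psma8 and Psma7 was 112.5 and 120.3 FPKM in EE_KO, 53.5 and 56.1 FPKM in KO and 127.9 and 121.7 FPKM in WT, and was thus lower in both KO libraries than in any other. In bulk RNA, fewer cells of a type and less RNA per cell cannot be told apart.

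Transcripts of the activators that cap the core also differed between KO and the other groups. Psme4, which encodes PA200, stood at 91.2 and 104.9 FPKM in EE_KO, at 15.9 and 15.2 FPKM in KO and at 108.6 and 97.7 FPKM in WT. Psme1, which encodes PA28 alpha, stood at 1.45 and 0.998 FPKM in EE_KO, at 20.8 and 19.96 FPKM in KO and at 1.07 and 1.79 FPKM in WT. Psme2, which encodes its partner PA28 beta, stood at 1.08 and 0.682 FPKM in EE_KO, at 13.2 and 20.3 FPKM in KO and at 1.13 and 1.12 FPKM in WT. For all 3 the KO libraries lay apart from the other groups; EE_KO and WT overlapped for Psme4 and Psme1, and for Psme2 both EE_KO libraries lay below both WT libraries by a small margin. Psme3, which encodes the nuclear activator PA28 gamma, differed less, with 29.7 and 32.8 FPKM in EE_KO, 43.2 and 42.5 FPKM in KO and 28.9 and 31.3 FPKM in WT.

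In KO against WT, Psme4 fell by 2.65 on the log2 scale (SE 0.11, limma adjusted p = 3.69e-07), while Psme1 rose by 3.15 (SE 0.19, adjusted p = 1.88e-06), Psme2 by 3.03 (SE 0.22, adjusted p = 4.50e-06) and Psme3 by 0.50 (SE 0.11, adjusted p = 0.00246). In EE_KO against KO the log2 changes were 2.58 for Psme4, -3.27 for Psme1, -3.22 for Psme2 and -0.45 for Psme3, all 4 called. Psme4 made up 73.9% and 75.3% of the summed FPKM of the 4 activator genes in EE_KO, 17.1% and 15.5% in KO and 77.7% and 74.1% in WT. The log2 ratio of Psme4 over the sum of Psme1, Psme2 and Psme3 was 1.55 ± 0.075 in EE_KO, -2.36 ± 0.12 in KO and 1.66 ± 0.20 in WT (SD, n = 2 each). It was 4.02 lower in KO against WT, a log2 difference of -4.02 or 16.3-fold, and differed by 3.92 in EE_KO against KO (exact permutation p = 0.333 for each, the smallest possible) and by -0.11 in EE_KO against WT (exact permutation p = 0.667). Taken on the mean of log2(FPKM + 1) of the 3 genes in place of their sum, the differences were -4.88 for KO from WT and 4.89 for EE_KO from KO.

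Psme1 and Psme2 lie 5911 bases apart on chromosome 14, and their levels stayed close to each other: Psme1 was 57.3% and 59.4% of their sum in EE_KO, 61.2% and 49.5% in KO and 48.5% and 61.5% in WT. Psme2b on chromosome 11, a near copy of Psme2 that the symbol rule leaves out, stood at 1.88 and 1.28 FPKM in EE_KO, at 23.7 and 20.4 FPKM in KO and at 3.07 and 1.66 FPKM in WT. The sources used here do not give how the authors' counting split reads between Psme2 and Psme2b, so the level of each is uncertain. Psme1 also overlaps Emc9, and the strand of the reads is not given either.

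**Figure D1:**
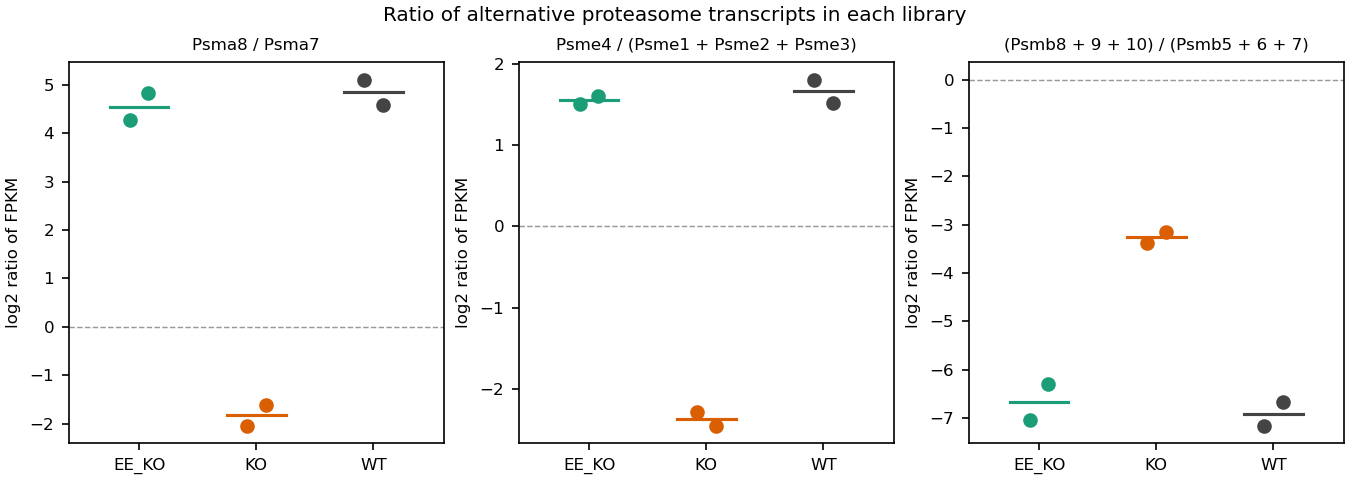
Log2 ratio of FPKM of alternative proteasome transcripts in each library (points) with the group mean (line), for EE_KO, KO and WT (2 libraries each). The KO means lie at -1.83 for Psma8 over Psma7 and at -2.36 for Psme4 over Psme1, Psme2 and Psme3, against 4.85 and 1.66 in WT; for the immune over the constitutive catalytic subunits KO lies above both other groups.

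The immune catalytic subunits were higher in KO, from a low level. Psmb10, the immune counterpart of Psmb7, stood at 0.921 and 1.53 FPKM in EE_KO, at 9.63 and 12.3 FPKM in KO and at 1.09 and 1.39 FPKM in WT. It rose by 2.41 in KO against WT (SE 0.20, limma adjusted p = 8.51e-06), with a log2 change of -2.43 in EE_KO against KO (SE 0.20, adjusted p = 8.79e-06), and the EE_KO and WT libraries overlapped. Psmb8, the counterpart of Psmb5, was counted with 2 and 4 reads in EE_KO, 47 and 36 reads in KO and 0 and 1 read in WT, at 0.0499 and 0.0733, 0.773 and 0.610, and 0 and 0.0241 FPKM. Psmb9, the counterpart of Psmb6, had 2 and 3 reads in EE_KO, 51 and 58 reads in KO and 4 and 9 reads in WT, at 0.0373 and 0.0548, 0.776 and 0.912, and 0.0781 and 0.163 FPKM. Psmb8 and Psmb9 stayed below the mean of 1 FPKM set for testing and have no test; for both, each KO library had more reads than any other library. They lie 9956 bases apart on chromosome 17 in the major histocompatibility region, where Psmb9 overlaps the peptide transporter gene Tap1, so its reads are not safely its own.

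The constitutive counterparts did not fall in step. Psmb5, the chymotrypsin-like subunit, stood at 56.1 and 55.7 FPKM in EE_KO, 59.2 and 61.3 FPKM in KO and 65.6 and 65.3 FPKM in WT. Psmb6, the caspase-like subunit, stood at 56.1 and 54.9 FPKM in EE_KO, 38.2 and 39.97 FPKM in KO and 76.2 and 71.1 FPKM in WT. Psmb7, the trypsin-like subunit, stood at 20.7 and 19.004 FPKM in EE_KO, 18.5 and 20.9 FPKM in KO and 24.6 and 25.1 FPKM in WT. For all 3 both WT libraries were the highest of the 6, and the EE_KO and KO libraries overlapped only for Psmb7. Psmb6 fell by 0.90 in KO against WT (SE 0.099, limma adjusted p = 4.89e-05) but by 0.23, uncalled, with quantile normalization. Psmb7 had a log2 change of -0.32 (SE 0.11, adjusted p = 0.0278) that turned to 0.10 with TPM and 0.17 with quantile normalization and lost its call without KO replicate 1, without WT replicate 1 or without WT replicate 2, and the change of Psmb5, -0.12, was not called (adjusted p = 0.267) and turned to 0.32 with TPM, where it was called.

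Taken as sums of FPKM, the immune subunits were 0.753% and 1.26% of immune plus constitutive catalytic transcripts in EE_KO, 8.79% and 10.2% in KO and 0.697% and 0.970% in WT. Psmb10 alone held 91.35% and 92.27% of the immune sum in EE_KO, 86.15% and 88.98% in KO and 93.31% and 88.2% in WT. The immune sum and its ratio are thus mainly those of Psmb10. The log2 ratio of immune over constitutive was -6.67 ± 0.53 in EE_KO, -3.26 ± 0.16 in KO and -6.92 ± 0.34 in WT (SD, n = 2 each). It was 12.6-fold higher in KO against WT (log2 difference 3.65, exact permutation p = 0.333, the smallest possible), differed by -3.41 in EE_KO against KO and by 0.25, less than the SD, in EE_KO against WT. The size depended on the low values: with a pseudocount of 1 FPKM the log2 difference of KO from WT was 2.27 and that of EE_KO from KO was -1.98, and on means of log2(FPKM + 1) they were 1.73 and -1.44. Even in KO the constitutive transcripts were 10.4 and 8.85 times the immune ones. Taken pair by pair, Psmb10 reached 34.2% and 37.0% of Psmb10 plus Psmb7 in KO, whereas Psmb8 reached 1.29% and 0.986% of its pair and Psmb9 1.99% and 2.23% of its own. These shares depend on the annotated exon lengths. They were 3381 bases for Psmb8 and 899 for Psmb5, 3660 for Psmb9 and 1872 for Psmb6, and 1705 for Psmb10 and 3421 for Psmb7. The thymus form, Psmb11, was at or near 0, with 0 and 1 reads in EE_KO, 0 and 4 in KO and 3 and 2 in WT.

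Levels of 12 genes of the interferon response and antigen presentation, which are induced together with the immune subunits, summed to 96.1 and 80.3 FPKM in EE_KO, 566.2 and 572.2 FPKM in KO and 82.8 and 80.2 FPKM in WT, and 11 of the 12 were higher in both KO libraries than in both WT libraries, as were 41.6% of all genes tested. Markers of macrophages and other leukocytes, cells that carry the immunoproteasome at all times, summed to 5.06 and 5.003, 36.4 and 28.1, and 3.21 and 4.68 FPKM in EE_KO, KO and WT. Of the 10 leukocyte markers 9 were higher in both KO libraries than in both WT libraries, and C1qa and Tyrobp were at 0 in both WT libraries. The 41.6% of all genes covers only genes that passed the filter for testing, which 4 of the 12 genes and 4 of the 10 markers did not. Counts of calls are not given for these lists, since markers near 0 in EE_KO and WT could reach the filter for testing only through KO. The part of these cells in the levels of Psmb8, Psmb9 and Psmb10 was not tested.

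**Figure D2:**
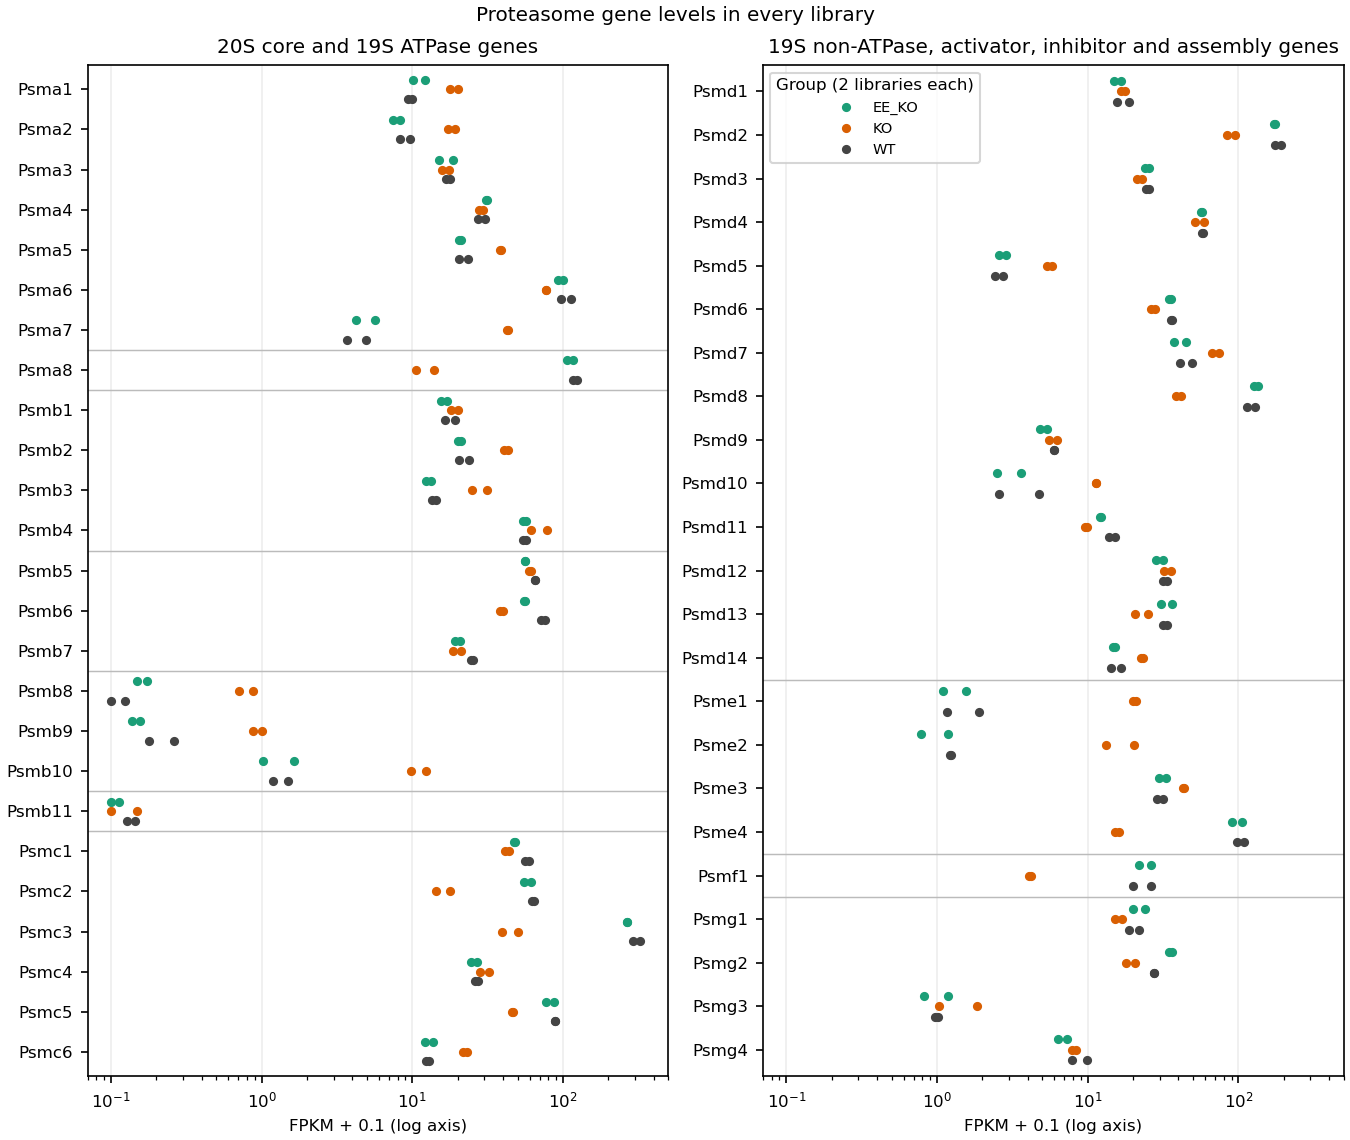
FPKM + 0.1 on a log axis for each proteasome gene in every library, with EE_KO, KO and WT in separate colours (2 libraries each). KO stands far apart from both other groups for Psma7, Psma8, Psmb10, Psmc2, Psmc3, Psmd8, Psmd10, Psme1, Psme2, Psme4 and Psmf1, among others, and for Psmb8 and Psmb9 at few reads. For most other genes the groups lie closer together. The KO and WT libraries nonetheless do not overlap for 37 of the 45 genes tested, against 93.4% of all genes.

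In the rest of the 20S core, several non-catalytic subunits rose in KO. In KO against WT limma called 86.2% of all genes tested (38.0% up, 48.2% down). Of the 7 ring subunits Psma1 to Psma7, 4 rose (Psma7, and Psma2, Psma1 and Psma5 with log2 changes of 0.97, 0.91 and 0.79), 1 fell and 2, Psma3 and Psma4, were not called on the deposited scale but were with TPM and quantile normalization, with log2 changes of up to 0.36 for Psma3. The one that fell, Psma6, stood at 93.1 and 99.5 FPKM in EE_KO, 76.7 and 76.7 FPKM in KO and 96.8 and 113.0 FPKM in WT, with a log2 change of -0.44 (SE 0.11, limma adjusted p = 0.00608) that turned to 0.39 with quantile normalization. Both KO libraries were the lowest for Psma6, and its mean was nonetheless the highest of the 20S genes there. Its level varied far less between the groups than that of Psma7 in the same ring, and the spread within the ring was narrower in KO: the highest of the 7 stood 16.9 and 24.2 times above the lowest in EE_KO, 4.94 and 4.44 times in KO and 26.8 and 23.2 times in WT.

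Among the 4 beta subunits without protease activity, Psmb3 and Psmb2 rose and none was called as lower. Psmb3 stood at 13.2 and 12.2 FPKM in EE_KO, 24.8 and 31.4 FPKM in KO and 13.4 and 14.3 FPKM in WT, a rise of 0.96 in KO against WT (SE 0.14, limma adjusted p = 0.000250). Psmb2 rose by 0.90. Psmb4 (0.32, adjusted p = 0.0516) was not called on this scale but was, at up to 1.07, among others with TPM, quantile normalization or voom. Psmb1, with the smallest change, stood at 16.8 and 15.3 FPKM in EE_KO, 19.9 and 18.1 FPKM in KO and 19.01 and 16.5 FPKM in WT, and its KO and WT libraries overlapped; it was called, at 0.51 and 0.54, with TPM and quantile normalization.

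The 19S ATPases form a ring with 1 copy of each of its 6 members, yet their transcripts lay far apart in EE_KO and WT and close together in KO. The highest stood 19.5 and 22.2 times above the lowest in EE_KO, 3.21 and 2.83 times in KO and 25.4 and 23.8 times in WT. Psmc3 stood at 263.9 and 267.9 FPKM in EE_KO, 39.5 and 50.3 FPKM in KO and 322.9 and 292.5 FPKM in WT, and it was the most abundant member of all 48 in each EE_KO and WT library. In KO against WT it had the largest fall of the ring, -2.76 (SE 0.13, limma adjusted p = 6.60e-07), and the KO libraries lay apart from all others. Psmc2 (-1.93), Psmc5 (-0.93) and Psmc1 (-0.44, but 0.21 with quantile normalization) fell too, and Psmc4 (0.17, adjusted p = 0.197) was not called on this scale but was called as higher, at up to 0.73, with TPM, quantile normalization and voom.

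Psmc6 rose. It stood at 13.5 and 12.1 FPKM in EE_KO, 23.0 and 21.5 FPKM in KO and 12.7 and 12.3 FPKM in WT, a rise of 0.78 in KO against WT (SE 0.12, limma adjusted p = 0.000287). It was the lowest of the 6 in every EE_KO and WT library. Psmc3 overlaps the zinc transporter gene Slc39a13, and reads of that gene cannot be told from its own without the strand.

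Of the 14 Psmd genes, which hold the 19S subunits without ATPase activity and 3 chaperones of 19S assembly (Psmd5, Psmd9 and Psmd10), 4 rose, 5 fell and 5 were not called in KO against WT, so that 64.3% were called, where 86.2% of all genes were. Psmd8, of the lid, fell most: it stood at 126.7 and 133.9 FPKM in EE_KO, 38.4 and 41.2 FPKM in KO and 128.5 and 114.0 FPKM in WT, a log2 change of -1.58 (SE 0.11, limma adjusted p = 3.49e-06). Psmd2, a scaffold of the base that binds ubiquitin receptors, fell by 1.02, and by 0.17, uncalled, with quantile normalization. Psmd11 (-0.53), Psmd13 (-0.50) and Psmd6 (-0.41) fell on the deposited scale and were not called with TPM; Psmd6 turned positive with TPM and, like Psmd13, with quantile normalization.

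The largest rise in this set was that of Psmd10, the assembly chaperone known as gankyrin and the one X-linked member. It stood at 3.53 and 2.41 FPKM in EE_KO, 11.2 and 11.2 FPKM in KO and 2.48 and 4.68 FPKM in WT, a rise of 1.46 in KO against WT (SE 0.25, limma adjusted p = 0.000644). The EE_KO and WT libraries overlapped and both KO libraries lay above them. Psmd5, another assembly chaperone, rose by 0.89, Psmd7 of the lid by 0.64 and Psmd14, the deubiquitinase of the lid, by 0.55. Psmd1, Psmd3, Psmd4, Psmd9 and Psmd12 had log2 changes between -0.17 and 0.06 and were not called on the deposited scale. With TPM or quantile normalization their changes reached 0.43, 0.33, 0.63, 0.36 and 0.65 in this order of genes; Psmd1, Psmd4 and Psmd12 were called in both, Psmd3 with quantile normalization and Psmd9 with TPM.

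The inhibitor gene Psmf1, which encodes PI31, stood at 21.8 and 26.2 FPKM in EE_KO, 3.95 and 4.13 FPKM in KO and 19.8 and 26.1 FPKM in WT. It fell by 2.24 in KO against WT (SE 0.16, limma adjusted p = 4.13e-06), differed by 2.31 in EE_KO against KO, and its EE_KO and WT libraries overlapped.

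Of the 4 chaperones that assemble the 20S core, Psmg1 and Psmg2 fell in KO against WT, and both were higher in EE_KO against KO. Psmg1 stood at 20.02 and 23.96 FPKM in EE_KO, 15.1 and 16.7 FPKM in KO and 18.8 and 21.8 FPKM in WT. Psmg2 stood at 34.4 and 36.4 FPKM in EE_KO, 17.7 and 20.5 FPKM in KO and 27.5 and 27.5 FPKM in WT. Both were lowest in KO. Psmg1 had a log2 change of -0.33 in KO against WT (SE 0.13, limma adjusted p = 0.0482), which kept its sign and call in 7 of 17 alternatives. It turned to 0.086 with TPM and 0.085 with quantile normalization. Its call was lost, among others, with voom, without KO replicate 1, without KO replicate 2 or without WT replicate 2. Psmg2 had a log2 change of -0.50 (SE 0.11, adjusted p = 0.00322) that was not called with TPM or quantile normalization. In EE_KO against KO the log2 changes were 0.44 for Psmg1 (SE 0.13, limma adjusted p = 0.0155) and 0.86 for Psmg2 (SE 0.11, adjusted p = 0.000146). The call of Psmg1 was lost, among others, with TPM, quantile normalization and voom, while that of Psmg2 was kept in all 17 alternatives. Psmg3 stood at 1.09 and 0.716 FPKM in EE_KO, 0.923 and 1.73 FPKM in KO and 0.864 and 0.913 FPKM in WT. Psmg4 stood at 6.28 and 7.22 FPKM in EE_KO, 7.72 and 8.30 FPKM in KO and 7.72 and 9.76 FPKM in WT. Neither was called in either comparison, and the KO libraries of Psmg4 overlapped those of WT.

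Counted together, 45 of the 48 members passed the filter of a mean of 1 FPKM over the 6 libraries; Psmb8, Psmb9 and Psmb11 did not, and Psmg3 lay just above it. Psme1, Psme2 and Psmb10 lay near 1 FPKM in EE_KO and WT. In KO against WT limma called 32 of the 45 (15 up, 17 down), or 71.1%, where it called 86.2% of all genes tested (38.0% up, 48.2% down). With TPM the split was 25 up and 9 down, and with quantile normalization 27 up and 8 down, as the median of all genes moved to 0.08 and 0.03 from -0.29 on the deposited scale. Deposited FPKM summed over all genes to 315680 and 325048 in EE_KO, 251584 and 232716 in KO and 335071 and 321463 in WT, and TPM sets these sums equal. Changes that involve KO thus depend on the scale chosen. The KO and WT libraries did not overlap for 37 of the 45 members (18 above and 19 below), against 93.4% of all genes (41.6% above, 51.9% below). The median log2 change of the members was -0.02.

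Changes of the members were smaller than those of most genes. In KO against WT 12 of the 45, or 26.7%, differed by at least 1 on the log2 scale, against 65.7% of all genes tested, and the median size of the change without its sign was 0.55, against 1.48 for all genes. Those 12 were Psma7, Psma8, Psmb10, Psmc2, Psmc3, Psmd2, Psmd8, Psmd10, Psme1, Psme2, Psme4 and Psmf1. They include the alternative forms Psma7, Psma8, Psmb10, Psme1, Psme2 and Psme4. No test of the members as a set was made.

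**Figure D3:**
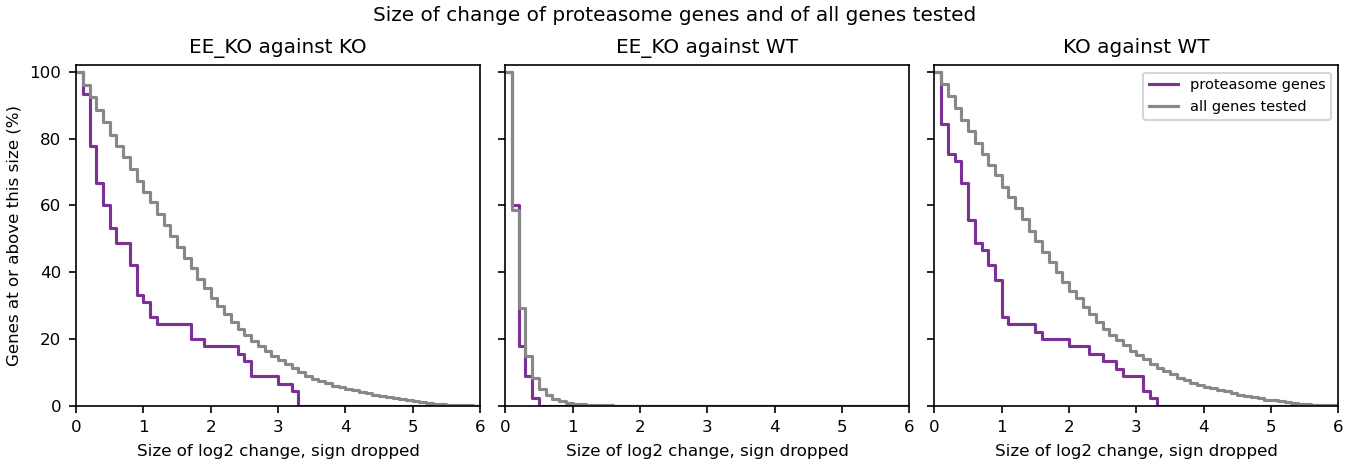
Share of genes (%) whose log2 change, with its sign dropped, is at or above the size on the horizontal axis, for the 45 proteasome genes tested and for all 15372 genes tested, in each comparison. At a size of 1 the proteasome line lies at 26.7% in KO against WT, below the 65.7% of all genes.

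EE_KO against KO uses the same KO libraries as KO against WT, so the directions of both comparisons are tied. In EE_KO against KO limma called 31 of the 45 members (15 up, 16 down), or 68.9%, where it called 85.6% of all genes (47.8% up, 37.8% down). With TPM the split was 9 up and 27 down, and with quantile normalization 7 up and 30 down. The libraries did not overlap for 41 of the 45 members (18 above and 23 below), against 93.6% of all genes (51.7% above, 41.8% below). Psmc3 stood at 2.55 and Psmc2 at 1.80, Psmd8 at 1.69 and Psmd10 at -1.63 on the log2 scale.

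In EE_KO against WT no member was called by limma, where 0.0455% of all genes were (0.0260% up, 0.0195% down), and none was called by voom on the recovered reads. At an unadjusted limma p under 0.05 stood 1150 of all 15372 genes tested. Of the members 5 did: Psmb6 (-0.40), Psmb7 (-0.31), Psmc1 (-0.27), Psmb5 (-0.22) and Psmg2 (0.36), named after their values were seen. All 3 constitutive catalytic genes are among them, each lower in both EE_KO libraries than in both WT libraries, and none passed the adjustment (adjusted p of 0.302 for Psmb6, 0.563 for Psmb7 and 0.661 for Psmb5). The 45 members lay between -0.40 and 0.36. Libraries did not overlap for 18 of them (3 above and 15 below), or 40.0%, against 36.5% of all genes (16.7% above, 19.8% below). The total share is near that of all genes, but the members leaned to lower values. Of the 45, 33 had log2 changes below 0 and 12 above 0, with a median of -0.07, against 0.004 for all genes. This split was not tested.

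**Figure D4:**
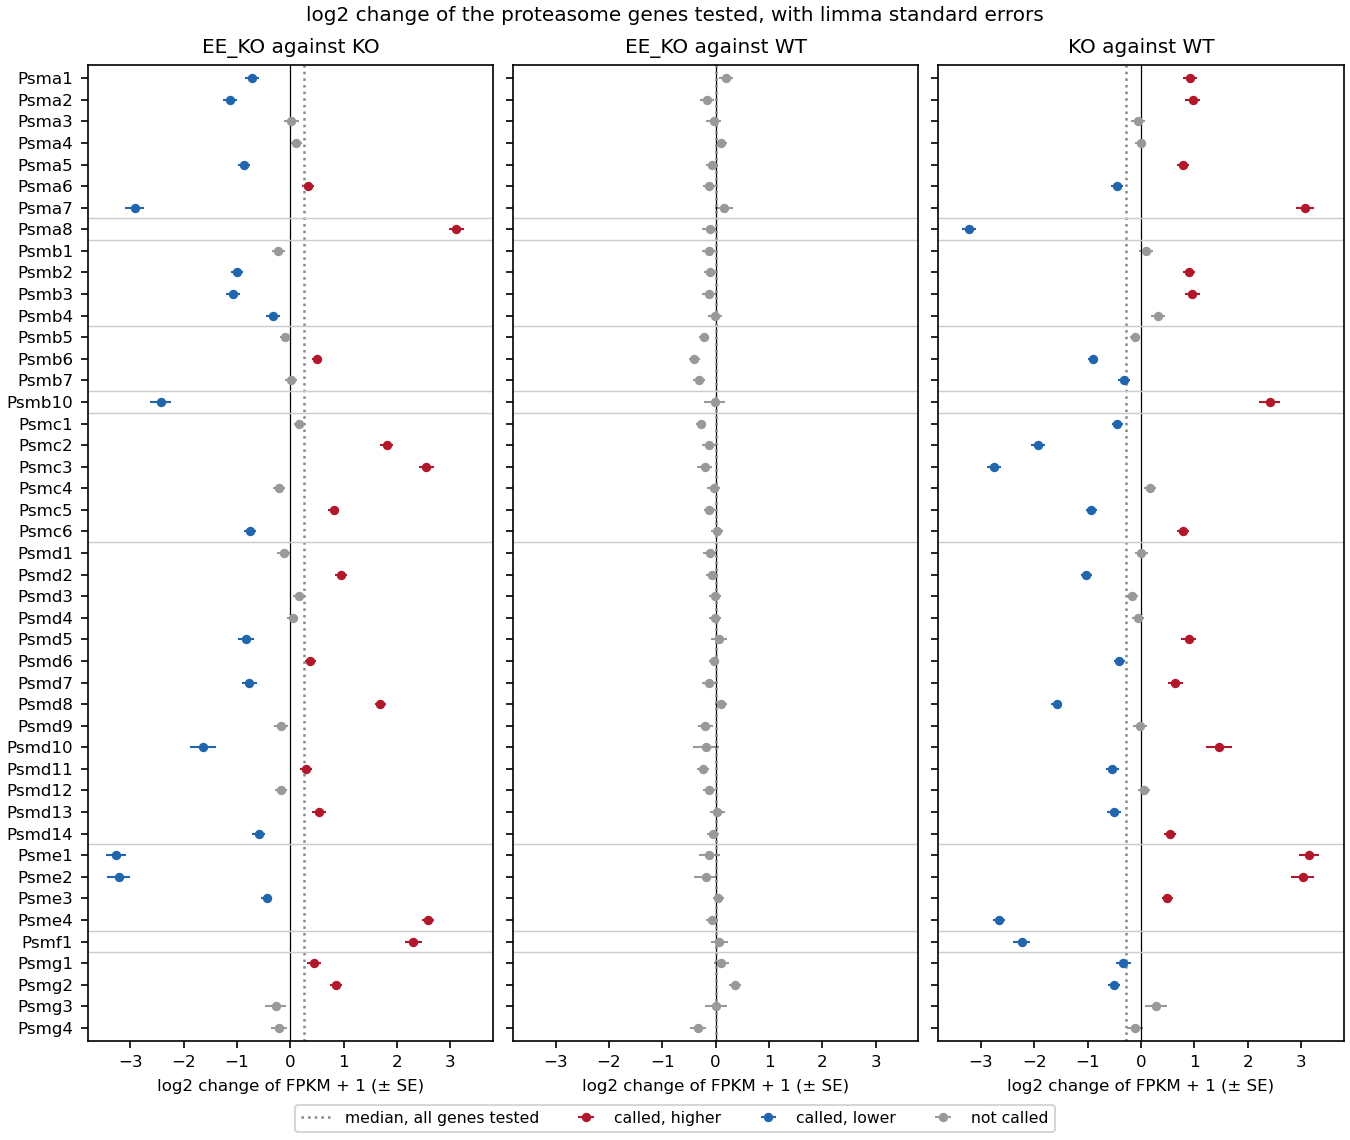
Log2 change of FPKM + 1 with limma's standard error for each proteasome gene tested, in EE_KO against KO, EE_KO against WT and KO against WT, ordered by role; colours mark genes called at an adjusted p below 0.05, and the dotted line is the median of all genes. Both comparisons with KO show changes up to about 3 in either direction, Psma8 at -3.22 and Psme1 at 3.15 in KO against WT, whereas the middle panel, EE_KO against WT, has all genes between -0.40 and 0.36.

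Other genes of the ubiquitin and proteasome pathway, from a list of 33 of which 32 matched a gene and could be tested, changed in both directions. Of these 19 rose and 10 fell in KO against WT, or 90.6% called against 86.2% of all genes (38.0% up, 48.2% down). When EE_KO was set against KO, 10 rose and 17 fell, or 84.4% against 85.6% of all genes (47.8% up, 37.8% down). Both total shares lie near those of all genes. By direction, more of the 32 rose than fell in KO against WT, while more of all genes fell than rose. The reverse held in EE_KO against KO, and these splits were not tested. In EE_KO against WT none was called by limma, with 3 (Sem1, Ecpas and Rps27a) at an unadjusted p under 0.05, as were 1150 of all 15372 genes tested. The 32 had a median log2 change of 0.50 in KO against WT, against -0.29 for all genes. The largest rises were those of the shuttle factor Ubqln2 (3.22, SE 0.24), the proteasome-binding zinc finger gene Zfand5 (2.22, SE 0.13) and the ubiquitin-activating enzyme Uba1 (2.19, SE 0.19), and both Ubqln2 and Uba1 are X-linked. Ubqln2 stood at 5.003 and 2.76 FPKM in EE_KO, 42.9 and 31.6 FPKM in KO and 2.82 and 3.28 FPKM in WT, with the EE_KO and WT libraries overlapping. Zfand5 stood at 12.1 and 9.52 FPKM in EE_KO, 46.4 and 46.4 FPKM in KO and 8.73 and 9.59 FPKM in WT. Uba1 stood at 17.2 and 14.6 FPKM in EE_KO, 62.8 and 59.6 FPKM in KO and 10.04 and 15.7 FPKM in WT. For both, the KO libraries lay above all others and EE_KO overlapped WT.

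Among the largest falls were those of Ddi1 (-3.06, SE 0.19), a shuttle protein with a protease fold, and of Uchl5 (-1.69, SE 0.14), a deubiquitinase bound to the 19S cap. Ddi1 stood at 7.27 and 8.65 FPKM in EE_KO, 0.0626 and 0.0243 FPKM in KO and 6.44 and 9.23 FPKM in WT. Uchl5 stood at 17.9 and 21.4 FPKM in EE_KO, 5.28 and 5.91 FPKM in KO and 21.6 and 19.1 FPKM in WT. The KO libraries were the lowest for both, and EE_KO overlapped WT. Nfe2l1, which encodes the transcription factor that induces proteasome genes when the proteasome is impaired, was chosen after its values were seen. It stood at 15.4 and 13.1 FPKM in EE_KO, 72.0 and 61.1 FPKM in KO and 14.9 and 17.2 FPKM in WT, a rise of 1.99 in KO against WT (SE 0.14).

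Promoter windows, from 250 before to 50 after the RefSeq start, were found for 40 of the 48 members and searched on both strands. CCAAT was in the windows of 14 of the 40 genes and in 37.4% of all 32851 windows. In KO against WT it was in 7 of 13 members that rose, Psma7 included, in 3 of 13 that fell and in 2 of 11 not called. The untested Psmb8, Psmb9 and Psmb11 are among the 40 but stand outside the splits by call. Members are counted by gene, with 43 windows for the 40, and all others by window, so these shares compare only roughly. AACTG was in 16 of the 40 genes and in 44.8% of all windows. It was in 7 of 13 that fell, Psme4 included, 5 of 13 that rose, Psmb10 included, and 2 of 11 not called. In the sequences shown above, the first base of AACTG or CAGTT lies 246 bases before the start in Psme4, and 232 and 70 before it in Psmb10. That of CCAAT lies 196 before it in Psma7. TGACNNNGC, the core of the antioxidant response element that NFE2L1 binds, was in 6 of the 40 genes (12.4% of all windows). These were Psmc6, which rose, Psmb6 and Psme4, which fell, and Psmb5, Psmd12 and Psmd9, which were not called. The match in Psme4 lies outside the stretch shown above. GAAA followed by any 2 bases and GAAA, the core of the interferon-stimulated response element, was in 5 of the 40 (3.44% of all windows). These were Psmb3 and Psme1, which rose, and Psmd4, Psmd9 and Psmg4, which were not called. Psmb10 had no such match. A match is a description of these letters and not evidence that a factor binds there.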

How the data were processed

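RNA was measured in 6 libraries of 3 groups, with 1.3 µg of total RNA and a SMARTER kit per library, per the labels' protocols. The authors deposited FPKM per Ensembl gene, per the file headers. Builds GRCm38 and mm10 stand in the submitters' processing notes, and the sources used here give no aligner, counter, annotation release or read strand. Symbols, positions and exon lengths came from GENCODE M21, which held 54495 of the 54532 genes and lacked 37. FPKM times exon length gave whole reads for 96.8 to 97.0% of values above 0 (tolerance 0.01), so 1 read over 2 kb is worth 0.0278 to 0.0357 FPKM. Intervals of counts were not used.

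Genes with a mean of at least 1 FPKM over the 6 libraries were tested (15372), with 535 short RNA genes set aside. limma 3.58.1 (R 4.3.3) fitted log2(FPKM + 1) of the 6 libraries together, using its trended variance and no block for the replicate number, with Benjamini-Hochberg adjustment over all genes tested and a threshold of 0.05. The added 1 FPKM understates changes of low genes. Ratios used FPKM without a pseudocount and an exact two-sided permutation test over libraries. The labels do not say that libraries come from separate animals, so the p-values rest on the spread among these libraries alone, which may be technical. The limma fit was tried on counts simulated from the WT means with few genes changed. That setting differs from KO here, where most genes changed, so it does not show how the fit does in that case. Tables were made in Python 3.11.15 (pandas 2.3.3, scipy 1.17.1, numpy 2.4.6) and plots with matplotlib 3.10.9.

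The members, lists and tests were chosen with earlier results of these data known. Named with values in every library were the alternative subunits, activators, inhibitor and assembly chaperones, the largest rise and fall in KO against WT of each other role, and the 3 largest called rises and falls of the partner list, of which 1 is not reported here. Alternatives used 0.1 or 0.5 as pseudocount, a mean of 5 FPKM or no minimum as filter, TPM, quantile normalization, a fit without the group not compared, a block for the replicate number, an untrended variance, short RNAs included, and each library left out; limma's voom on the recovered reads was added after the data were seen.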

Additional observations from a re-analysis of the deposited data

How the results depend on the processing

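Psma8, Psma7, Psme1, Psme2, Psme3, Psme4, Psmb10, Psmc3, Psmd8, Psmd10 and Psmf1 kept their calls and directions in each alternative run for EE_KO against KO and KO against WT. Of the members called, 22 of 31 in EE_KO against KO and 22 of 32 in KO against WT were called in every alternative, and 27 and 26 kept their sign. The split of calls depended on the scale: in EE_KO against KO 9 up and 27 down with TPM and 7 and 30 with quantile normalization, and in KO against WT 25 up and 9 down with TPM and 27 and 8 with quantile normalization, against 15 and 16 and 15 and 17 as deposited. In EE_KO against KO signs turned for Psmb6 (-0.10, quantile), Psmb7 (-0.38 with TPM, -0.42 quantile, -0.15 voom, and from -0.075 to 0.091 with each library left out, at -0.050 without EE_KO replicate 1 and at -0.075 without KO replicate 1) and Psma6 (-0.076 with TPM, -0.41 quantile), and, at the lowest, for Psmd6 (-0.14) and Psmd11 (-0.075) among members called, and for the uncalled Psma3 (-0.36), Psma4 (-0.41), Psmc1 (-0.41), Psmd3 (-0.31) and Psmd4 (-0.59). In KO against WT they turned for Psmb5 (0.32 with TPM, 0.58 quantile, 0.057 voom), Psmb7 (0.10 and 0.17), Psmg1 (0.086 and 0.085), Psmg4 (0.29 with TPM, 0.080 quantile, 0.054 voom, and from -0.26 to 0.046 with each library left out, the highest without WT replicate 2), Psma6 (0.39, quantile) and Psmb1 (from -0.0027 without WT replicate 2 to 0.19 without WT replicate 1). At the highest they also turned for Psmc1 (0.21), Psmd6 (0.17) and Psmd13 (0.032) among members called and for the uncalled Psma3 (0.36), Psma4 (0.555), Psmd3 (0.33), Psmd4 (0.63) and Psmd9 (0.36), and at the lowest for Psmd1 (-0.11) and Psmd12 (-0.023). The voom fit was chosen after seeing the data. The log2 ratio of Psme4 over the other activators in EE_KO against WT was 0.010 as a mean of log2 values, against -0.11. The causes were not tested. With each library left out in turn, members called numbered 27 to 30 in EE_KO against KO, 0 to 0 in EE_KO against WT and 30 to 32 in KO against WT, and the Psma8 over Psma7 difference ran from 6.11 to 6.65, -0.57 to -0.03 and -6.94 to -6.42. In EE_KO against WT the uncalled difference of the Psme4 ratio then ran from -0.25 to 0.037 and that of the immune over the constitutive subunits from -0.13 to 0.62.

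With the replicate number as a block, 29 members were called in EE_KO against KO, 0 in EE_KO against WT and 32 in KO against WT; the labels do not say whether a number marks a shared experiment, and deviations of same-numbered libraries correlated at 0.0767, 0.0686 and -0.0176 in these comparisons. The block left the ratios at 6.38, -0.30 and -6.68 for Psma8 over Psma7. Depth limits Psmb8, Psmb9 and Psmb11, which had few reads in EE_KO and WT.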

Other observations

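A few genes whose symbols start like those of the members lie outside the symbol rule. Psmc3ip, which encodes a recombination factor that takes its name from binding PSMC3 and is not a proteasome subunit, stood at 58.5 and 62.8 FPKM in EE_KO, 4.65 and 5.92 FPKM in KO and 73.6 and 66.1 FPKM in WT, with both KO libraries below all others. The pseudogene Psmb6-ps on the X chromosome had 0 reads in both EE_KO libraries, 3 and 4 reads in the KO libraries and 0 in both WT libraries, and whether these reads came from Psmb6 was not tested.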
